A study of Mus musculus with 60 samples.

Results

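Mismatch repair corrects base mispairs and small loops that DNA polymerases leave behind. MutS family proteins find the mispair, MutL family proteins join them and nick the new strand, and an exonuclease then removes a stretch of that strand before it is filled in and ligated. Levels of 6 genes of this pathway were followed in mouse fibroblasts: the MutS members Msh6 and Msh3, the MutL members Mlh3, Pms1 and Pms2, and the exonuclease Exo1. MSH6 takes part in recognising single mispairs and short loops, and MSH3 in recognising larger loops. PMS2 carries the nicking endonuclease of the main MutL complex, MLH3 belongs to a MutL complex best known from meiotic crossing over, and PMS1 has no well defined role in repair. In dividing cells, EXO1 degrades the nicked strand, and its gene is among those whose RNA is high in cells that copy their DNA. The members were chosen by name as 6 of the 56980 rows of each of 2 count tables, and all 6 passed the filter on low counts in both tables.

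The first table held 36 bulk RNA-seq libraries of tail tip fibroblasts in 12 groups of 3 during partial reprogramming, in which doxycycline switches on a cassette of Oct4, Sox2, Klf4 and Myc (4FJ). D/KO cells were labelled 4FJ_ERCC1_(d/-), with a truncated and a null allele of the nucleotide excision repair gene Ercc1, and came from male mice of 8 weeks. WT cells were labelled 4FJ_(+/-)_OCT4-GFP and came from female mice of 22 weeks. Both were taken at day 0 and after 2 and 4 days of doxycycline at 2 µg/ml, with or without VC, which is ascorbic acid at 50 µg/ml with the GSK3 inhibitor CHIR at 3 µM. The second table held 24 libraries in 8 groups of 3. In it, D/KO cells labelled ERCC1_(d/-), from female mice of 4 weeks, were left as controls or given for 3 days Repsox, Vactosertib, A83-01 or DMH-1, for which the labels give no dose. The 3 other groups were ERCC1_(+/+)_WT cells from tail tip and from skin, from female mice of 14 weeks, and 4FJ_(+/-)_OCT4-GFP cells from female mice of 22 weeks labelled TGFB. Genotype, line, sex and age changed together between D/KO and WT cells of the reprogramming table, and genotype and age between the ERCC1_(d/-) and ERCC1_(+/+)_WT tail tip cells of the inhibitor table, so their parts in a difference cannot be told apart. The labels do not say whether the 3 libraries of a group came from separate cultures, so the p-values measure the spread between these libraries.

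Library totals were 16538374 to 18484951 counts in the reprogramming table and 17102639 to 30599138 in the inhibitor table. Ercc1 lay at 8.04 to 18.6 counts per 1000000 (CPM) in the 18 D/KO and at 16.9 to 29.1 CPM in the 18 WT reprogramming libraries. In the inhibitor table, Ercc1 was at 20.3 to 20.9 CPM in control cells labelled D/KO and at 13.3 to 21.7 CPM in WT tail tip cells, so it did not separate the genotypes there and the labels of that table could not be checked by it. The reprogramming ranges overlap as well. Pou5f1, which encodes Oct4, was at 0.472 to 2.88 CPM at day 0 and at 12.5 to 149.7 CPM at days 2 and 4. The summed level of 8 fibroblast markers (among them Col1a1, Pdgfra and Dcn) was at least 24290 CPM in every library of both tables. The sum does not show each marker. In the TGFB-labelled cells, the log2 difference from WT tail tip cells was -6.21 for Pdgfra and -6.5 for Dcn, and 0.19 for Col1a1. In bulk RNA, a change in the share of cells that express a gene and a change in RNA per cell cannot be told apart.

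DNA before the transcription start of 5 members is shown as a description. Its part in the changes of the genes was not tested. Letters were searched on both strands in the 250 bases before the start of the main transcript: the E2F letters TTTCCCGC, TTTGGCGC, TTTCGCGC and TTTGCCGC, the CCAAT box, the GC box GGGCGG and the cell cycle homology region TTTGAA. Among 21770 promoters of protein-coding genes, E2F letters were in 2.28%, CCAAT in 36.5%, the GC box in 36.3% and TTTGAA in 15.6%. Matches are in capitals, and sequences are written 5′ to 3′ on the gene's strand with GRCm39 positions. A match is a description of letters, not a shown binding site, and no match says nothing about a factor.

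For Exo1, 150 bases ending at the start (chr1:175707993-175708142, plus strand) held none of these letters, and none was found in its 250 bases.
Exo1: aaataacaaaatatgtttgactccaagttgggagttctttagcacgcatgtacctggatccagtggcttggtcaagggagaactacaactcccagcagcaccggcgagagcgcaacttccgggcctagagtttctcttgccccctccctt
For Msh6, 137 bases (chr17:88282281-88282417, plus strand) held a run of overlapping GC boxes and 2 more, of which the last runs 1 base past the printed end.
Msh6: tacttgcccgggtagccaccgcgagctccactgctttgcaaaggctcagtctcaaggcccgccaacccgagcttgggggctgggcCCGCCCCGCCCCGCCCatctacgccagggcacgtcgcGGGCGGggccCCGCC
For Msh3, no sequence is printed, and its 250 bases held a pair of overlapping E2F matches and 3 GC boxes.
For Mlh3, 146 bases (chr12:85317406-85317551, minus strand) held 1 CCAAT box, read on the other strand.
Mlh3: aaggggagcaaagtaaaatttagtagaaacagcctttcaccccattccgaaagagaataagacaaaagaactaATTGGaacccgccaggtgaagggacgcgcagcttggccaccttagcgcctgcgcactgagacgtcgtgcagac
For Pms1 (chr1:53336197-53336226, minus strand) and Pms2 (chr5:143846698-143846727, plus strand), 30 bases around CCAAT boxes are shown. Both stretches lie before the start of the main transcript but within a UTR annotated for another transcript. The 250 bases of Pms2 also held a CCAAT box 116 to 112 bases before the start and GC boxes 31 to 26 and 20 to 15 bases before it, which are not printed.
Pms1: gccgATTGGctgccagccgcgCCAATccca
Pms2: acctttgagttggCCAATcaccggtaaaga

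Per kilobase of gene length, Msh6 was the most abundant member, with a median of 7.57 CPM per kilobase over the reprogramming libraries. Mlh3 followed at 2.84, then Pms2 at 0.808, Msh3 at 0.744, Pms1 at 0.404 and Exo1 at 0.186. The rarest member moved most. The highest group mean of Exo1 was 17.3 times its lowest in the reprogramming table, against 3.14 times for Pms1, 2.05 for Msh3, 1.88 for Msh6, 1.85 for Pms2 and 1.78 for Mlh3. When the 12 groups were put in order of their means, few neighbours were apart: in Exo1, 2 of 11 steps had no overlap of libraries, as in Msh6, and in the other 4 members all neighbours overlapped. In Exo1, these steps lay between D/KO day 4+VC and D/KO day 2+VC, the highest groups, and between D/KO day 2 and WT day 0+VC. In Msh6 they were the steps from WT day 4+VC to D/KO day 2+VC and from there to D/KO day 4+VC.

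**Figure D1:**
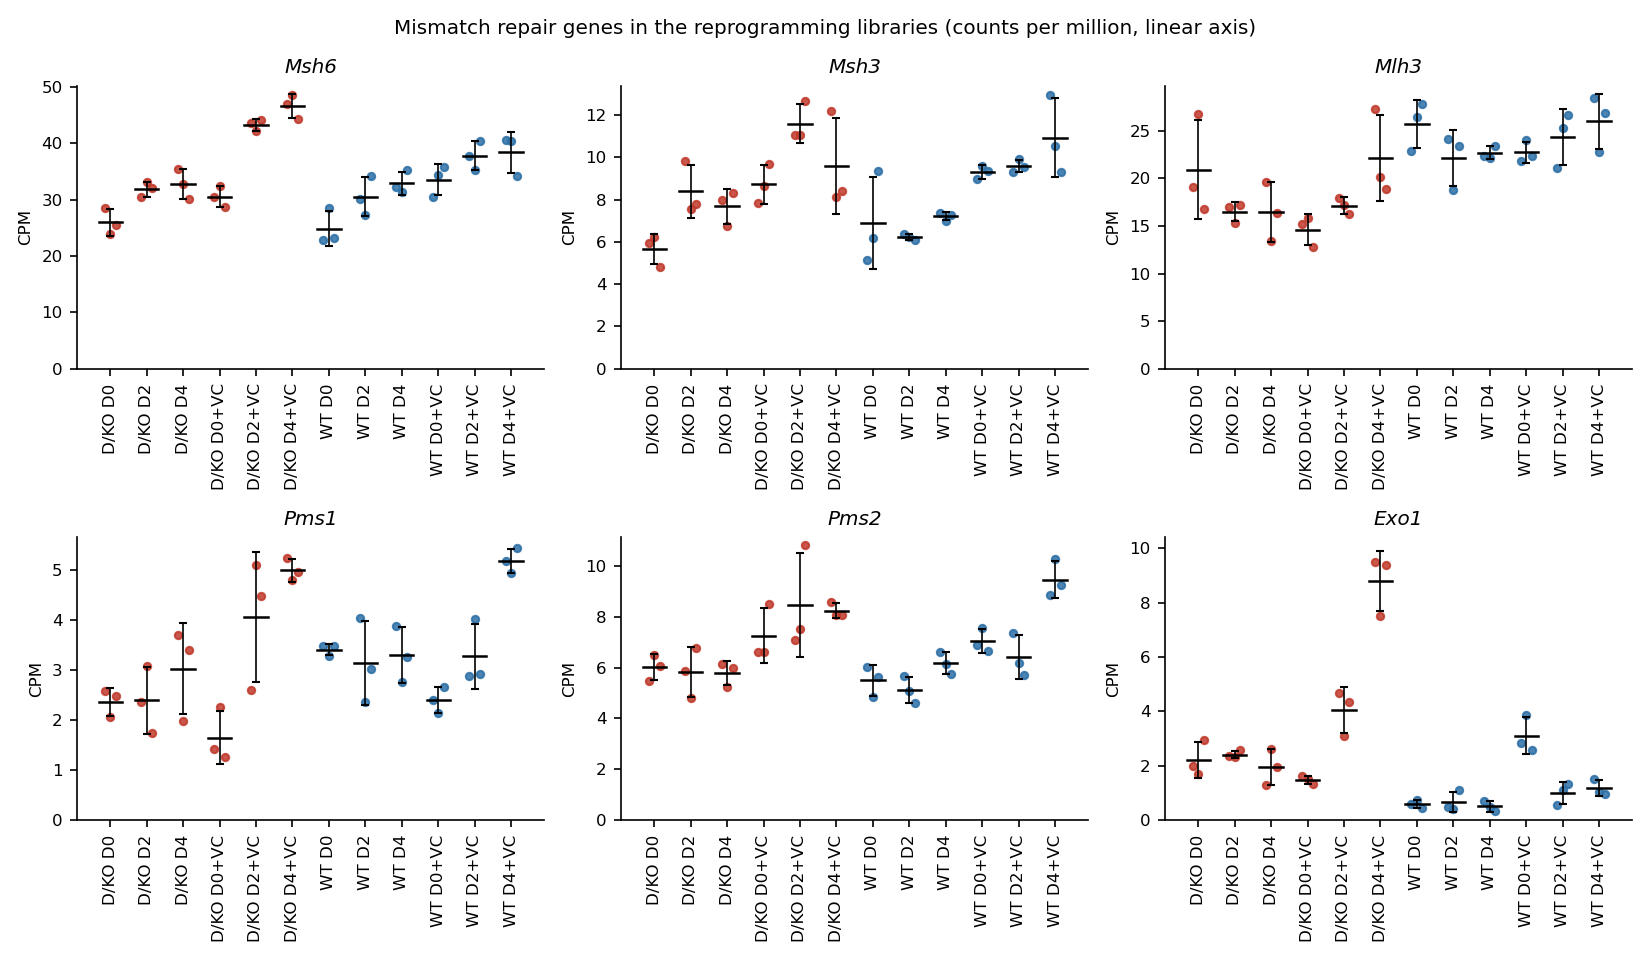
Each panel plots CPM (linear axis) of a mismatch repair gene in the 36 reprogramming libraries (points) of 12 groups, with the group mean and SD over 3 libraries; D/KO cells are red and WT cells blue. Exo1 reaches 7.52 to 9.52 CPM in D/KO cells at day 4 with VC, above all 33 other libraries, while the other 5 genes span narrower ranges.

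The question of the time course was how expression moved during reprogramming. With VC, 4 of the 6 genes rose in D/KO cells by day 4 and 0 fell, namely Exo1, Pms1, Msh6 and Mlh3. Of all genes tested, 54.1% were called in this comparison, and 27.9% were called upward. The median log2 change was 0.61 over the 6 members and 0.01 over all genes. A gene is said to be called when its p from edgeR (quasi-likelihood F-test), adjusted over all genes tested by Benjamini and Hochberg, is under 0.05, and changes are on the log2 scale with their standard error (SE).

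In D/KO cells with VC, Exo1 was at 1.62, 1.51 and 1.33 CPM at day 0, at 4.69, 3.08 and 4.37 CPM at day 2, and at 9.52, 7.52 and 9.38 CPM at day 4. The 3 days did not overlap. Exo1 rose by 1.44 (SE 0.321, adjusted p = 0.000326) by day 2 and by 2.56 (SE 0.316, adjusted p = 1.28e-08) by day 4, which is 5.9-fold. From day 2 to day 4 it rose by a further 1.12 (SE 0.283, adjusted p = 0.00431), as 1 of 6 members, against 15.6% of genes called and 7.76% called upward. With totals, Mlh3 was called there as well (0.48). Without VC, the same cells stayed between 1.30 and 2.95 CPM on all 3 days, and the change at day 4 was -0.18 (95% confidence interval -0.82 to 0.46).

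Pms1 in D/KO cells with VC was at 1.42, 2.26 and 1.26 CPM at day 0, at 2.60, 5.09 and 4.48 CPM at day 2 and at 5.23, 4.79 and 4.95 CPM at day 4. All libraries of days 2 and 4 lay above those of day 0, and days 2 and 4 overlapped. It rose by 1.30 (SE 0.281, adjusted p = 0.000218) by day 2 and by 1.60 (SE 0.278, adjusted p = 7.43e-06) by day 4, with 18 to 99 counts per library behind these values. Msh6 stood at 30.5, 32.4 and 28.7 CPM at day 0, at 43.5, 42.1 and 44.1 CPM at day 2 and at 47.0, 48.6 and 44.2 CPM at day 4. The rise of Msh6 was 0.50 (SE 0.105, adjusted p = 0.000151) by day 2 and 0.61 (SE 0.105, adjusted p = 6.8e-06) by day 4. The days did not overlap, but days 2 and 4 nearly met, at 44.15 and 44.24 CPM. From day 2 to day 4 the change of Msh6 was 0.11 (SE 0.103, adjusted p = 0.589). At day 2 with VC, these 3 genes were the ones called, 3 of 6 upward against 47.4% of all genes called and 23.8% called upward. With totals in place of TMM scaling, under which the median of all genes was 0.24, all 6 were called upward.

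Mlh3 was called at day 4 with VC, moving from 15.2, 15.8 and 12.8 CPM at day 0 to 27.3, 20.2 and 18.9 CPM (log2 change 0.60, SE 0.157, adjusted p = 0.00147). This call depended on which day 0 was used: against day 0 without VC, where Mlh3 was at 19.1, 26.8 and 16.8 CPM, the change was 0.08 (adjusted p = 0.689). The calls of Exo1, Pms1 and Msh6 at day 4 held against that other baseline, at 1.99, 1.07 and 0.85. Msh3 and Pms2 did not pass the test at day 4 with VC, at 0.14 (95% confidence interval -0.22 to 0.50) and 0.19 (-0.15 to 0.52), but both were called against day 0 without VC, at 0.76 (adjusted p = 0.000599) and 0.45 (adjusted p = 0.0225). At day 2 with VC they were likewise called against that baseline, at 1.03 (adjusted p = 1.18e-05) and 0.49 (adjusted p = 0.0151). Against day 0+VC itself, both were called at day 4 with totals in place of TMM scaling, at 0.51 (adjusted p = 0.0153) and 0.55 (adjusted p = 0.00551), where the median of all genes was 0.38.

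In D/KO cells without VC at day 2, 2 of 6 members rose, Msh3 and Msh6, against 27.4% of genes called and 14.3% called upward. Msh3 went from 5.93, 6.22 and 4.83 CPM to 9.83, 7.54 and 7.80 CPM, which do not overlap (log2 change 0.57, SE 0.183, adjusted p = 0.0179). That call was lost without the third library of day 0 (adjusted p = 0.0986) or the first of day 2 (0.121). Msh6 went from 28.4, 23.9 and 25.5 CPM to 30.4, 33.1 and 32.1 CPM at day 2 (log2 change 0.30, adjusted p = 0.0339) and to 35.4, 32.7 and 30.1 CPM at day 4 (0.34, adjusted p = 0.0113). The day 2 call was lost without the second (adjusted p = 0.152) or the third library of day 0 (0.0864) and without the second (0.114) or the third of day 2 (0.0751). The day 4 call, the only 1 of 6 against 37% of genes called and 18.3% called upward, was lost without the second library of day 0 (0.0703) or the first of day 4 (0.0728). Msh3 was called at day 4 too with totals in place of TMM scaling (0.61, adjusted p = 0.00895). From day 2 to day 4, edgeR and DESeq2 called 0 of 6, none had an unadjusted p under 0.05, and 9.57% of genes were called.

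In WT cells with VC, Exo1 moved the other way than in D/KO cells. By day 4, Pms1 and Pms2 rose and Exo1 fell, 3 of 6 against 44.7% of genes called, 22.7% upward and 22% downward. With totals in place of TMM scaling, under which the median of all genes was 0.31, all 6 were called, Exo1 downward and the other 5 upward. At day 2, Exo1 alone was called, 1 of 6 against 27.5% called and 13.7% called downward, and with totals Msh6 was called upward as well (0.30). Exo1 was at 2.84, 3.87 and 2.59 CPM at day 0+VC, at 0.552, 1.10 and 1.34 CPM at day 2+VC and at 1.51, 1.04 and 0.968 CPM at day 4+VC. Day 0+VC stood above both later days without overlap, and Exo1 fell by 1.63 (SE 0.336, adjusted p = 0.00026) and by 1.40 (SE 0.328, adjusted p = 0.000649). The direction turned with the baseline: WT cells without VC were at 0.608, 0.752 and 0.460 CPM at day 0, and against these the changes were 0.72 (adjusted p = 0.153) and 0.94 (adjusted p = 0.0479). Against that baseline Msh6 and Msh3 were called as well, Msh6 at 0.60 (adjusted p = 1.96e-05) and 0.63 (adjusted p = 8.66e-06) and Msh3 at 0.47 (adjusted p = 0.0338) and 0.66 (adjusted p = 0.00281) at days 2 and 4.

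Pms1 in WT cells rose from 2.40, 2.15 and 2.66 CPM at day 0+VC to 5.17, 4.94 and 5.43 CPM at day 4+VC, the highest group mean of this gene (log2 change 1.11, SE 0.263, adjusted p = 0.000769). Against day 0 without VC, at 3.48, 3.28 and 3.47 CPM, the change was 0.60 (adjusted p = 0.0548). Pms2 rose from 6.89, 7.56 and 6.64 CPM to 8.83, 10.3 and 9.25 CPM (0.43, SE 0.165, adjusted p = 0.0335). The call of Pms2 was lost without the first (adjusted p = 0.0843) or the third library of day 0+VC (0.105) and without the second (0.114) or the third of day 4+VC (0.0548). Pms2 was also the only member called from day 2+VC to day 4+VC (0.56, SE 0.165, adjusted p = 0.0143), 1 of 6 against 20.1% of genes called and 9.95% called upward, a call lost without the second (0.0509) or the third library of day 2+VC (0.0724) or the second of day 4+VC (0.0667). With totals, Pms1 was called there too (0.81).

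WT cells without VC gave 1 call at day 4, 1 of 6 against 24.5% of genes called and 11.7% called upward. Msh6 rose from 22.9, 28.5 and 23.2 CPM to 32.2, 31.3 and 35.2 CPM, which do not overlap (log2 change 0.40, SE 0.106, adjusted p = 0.00429). At day 2, edgeR and DESeq2 called 0 of 6 against 10.6% of genes in edgeR, and Msh6 had the only unadjusted p under 0.05. Between days 2 and 4, both tools called 0 of 6 and none had such a p, against 21.5% of genes called.

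**Figure D2:**
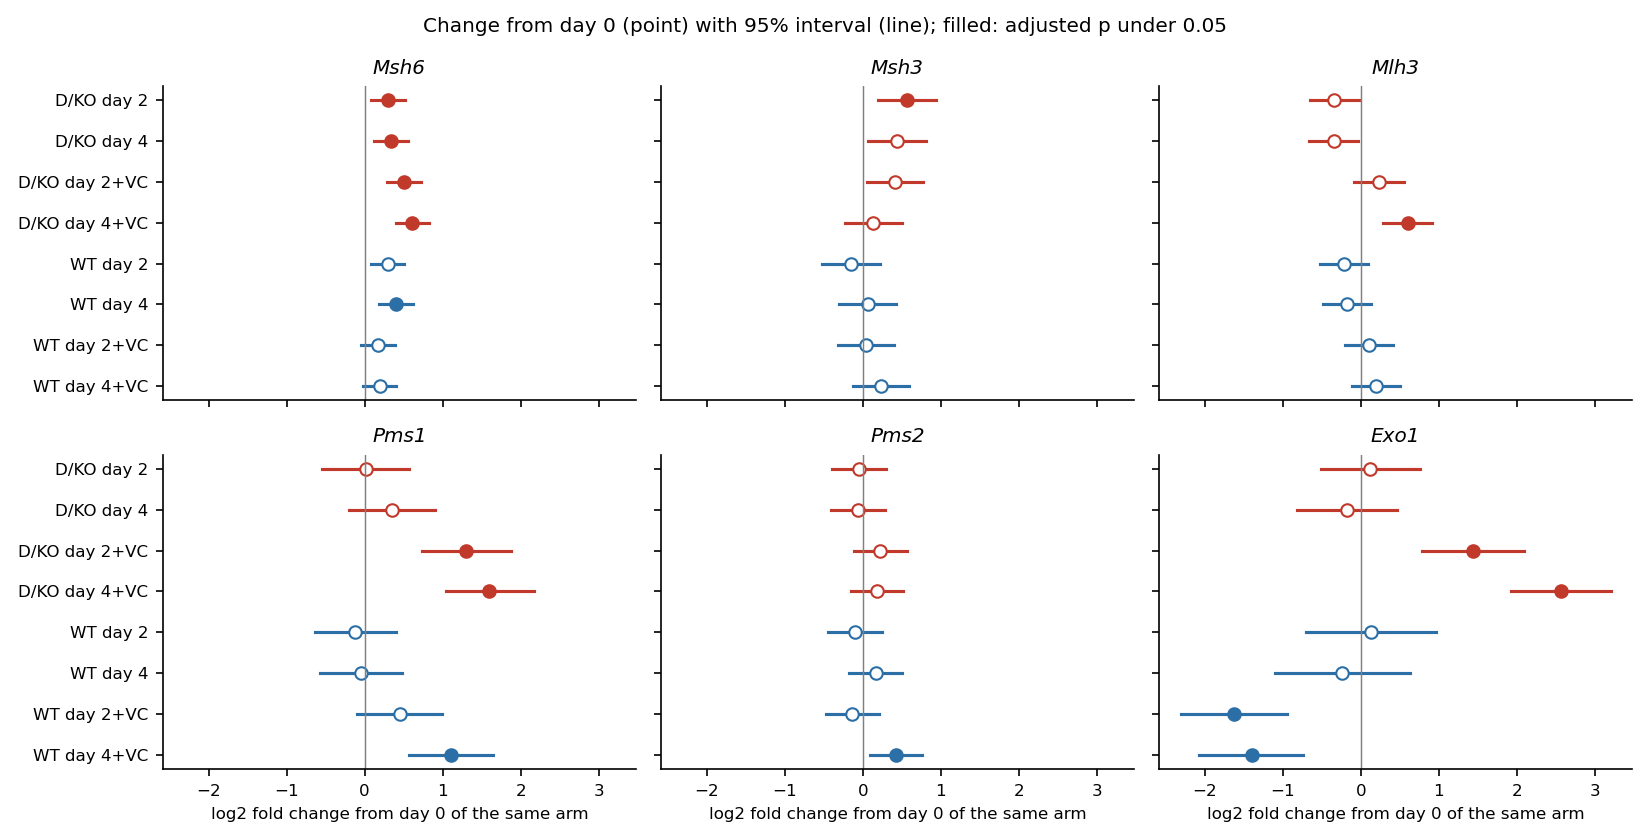
Log2 fold change from day 0 of the same arm (x axis) of each mismatch repair gene in D/KO (red) and WT (blue) cells at days 2 and 4, with or without VC; points are estimates from 3 libraries a group, lines 95% confidence intervals, and filled points have an adjusted p under 0.05. Exo1 lies at 2.56 in D/KO cells and at -1.40 in WT cells at day 4 with VC, while Pms1 is above 0 in both, at 1.60 and 1.11.

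Whether the change from day 0 differed between D/KO and WT cells was tested as an interaction. At day 4 with VC, Exo1 and Msh6 rose more in D/KO cells, 2 of 6 against 29.4% of genes called and 13.9% called in that direction. The difference was 3.96 for Exo1 (SE 0.454, adjusted p = 2.51e-08), and 3.07 at day 2 with VC (SE 0.465, adjusted p = 1.07e-05), where it was the only member called, against 13.9% of genes called and 6.86% in that direction (with totals, Msh6 was called as well, at 0.47). With day 0 without VC as the baseline of both lines, the differences in Exo1 were 1.04 (adjusted p = 0.136) and 0.15 (adjusted p = 0.887), so both calls rest on the day 0+VC groups. For Msh6 the difference was 0.41 (SE 0.148, adjusted p = 0.0323), and 0.22 (adjusted p = 0.333) with the other baseline. Its call was lost without any of 6 single libraries: the first (adjusted p = 0.0576) or the third (0.0787) of D/KO day 0+VC, the second of D/KO day 4+VC (0.0735), the second (0.0599) or the third (0.0906) of WT day 0+VC, and the third of WT day 4+VC (0.105). Without VC, edgeR and DESeq2 called 0 of 6 at day 2 and at day 4, against 6.54% and 14.3% of genes, and Msh3 at day 2 had the only unadjusted p under 0.05.

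At day 0 without VC, D/KO cells had more Exo1 than WT cells, at 2.00, 1.70 and 2.95 CPM against 0.608, 0.752 and 0.460 CPM. The groups did not overlap (log2 difference 1.86, SE 0.362, adjusted p = 7.75e-05), and Exo1 was the only member called, 1 of 6 against 43.2% of genes called and 22.1% called as higher in D/KO cells. With totals in place of TMM scaling, under which the median of all genes was -0.22, 4 of 6 were called, Exo1 as higher (1.66) and Mlh3 (-0.49), Msh3 (-0.48) and Pms1 (-0.72) as lower in D/KO cells. With VC the order was the reverse, with a log2 difference of -1.06 (SE 0.327, adjusted p = 0.0177). This call was lost without the third D/KO library (adjusted p = 0.0728) or the second WT library (0.103). Mlh3 was also lower in D/KO cells with VC, at 15.2, 15.8 and 12.8 CPM against 21.8, 24.02 and 22.4 CPM (log2 difference -0.64, SE 0.158, adjusted p = 0.00271), which made 2 of 6 lower against 20.3% of genes called and 10.5% called as lower. The summed level of 5 immune markers (Ptprc, Cd68, Adgre1, Lyz2 and Csf1r) was 12.8 to 13.4 CPM in D/KO and 75.6 to 146 CPM in WT day 0 libraries, and 5 of 5 were lower in D/KO cells without VC. The sum of 4 endothelial markers (Pecam1, Cdh5, Kdr and Tek) went the other way, at 512 to 599 CPM in D/KO and 14.4 to 17.2 CPM in WT day 0 libraries, and 4 of 4 were higher in D/KO cells. Summed over 8 G2 and M phase genes, levels were 127.8 to 141.6 CPM in D/KO and 39.6 to 48.3 CPM in WT day 0 libraries, and over 15 S phase genes 290.4 to 376 CPM and 190.8 to 207 CPM. The 4 muscle markers summed to 20.8 to 34.4 CPM in D/KO and 1.82 to 3.01 CPM in WT day 0 libraries, with Des, the only one tested, higher by 3.38. With VC at day 0, the immune sum was 10.2 to 12.8 CPM in D/KO and 69.6 to 117.8 CPM in WT libraries. The endothelial sum was 180.1 to 216.8 CPM and 4.67 to 7.08 CPM. The part of these lists in the differences was not tested.

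VC was compared with no VC on the same day, and with TMM scaling all but 1 of the calls it gave were upward. In D/KO cells, 1 member was higher and 1 lower at day 0 (26.1% of genes called, 12.1% higher and 14% lower), 4 of 6 were higher at day 2 (25.3% called, 11.1% higher) and 5 of 6 at day 4 (34.5% called, 16.8% higher). In WT cells, 2 of 6 were higher at day 0 (29.4% called, 15.1% higher), 2 at day 2 (26.6% called, 13.5% higher) and 3 at day 4 (22.4% called, 12% higher), and 0 were lower. The directions at WT day 0 turned with the scaling: with totals in place of TMM, 1 was higher (Exo1, 2.06) and 2 were lower, Mlh3 (-0.47, adjusted p = 0.0152) and Pms1 (-0.80, adjusted p = 0.0152), where the median of all genes was -0.29. At WT day 2 neither call held with totals, and at D/KO day 0 Mlh3 alone was called, as lower (-0.70). Exo1 had the largest differences, 2.17 in D/KO cells at day 4 (SE 0.299, adjusted p = 4.25e-07) and 2.35 in WT cells at day 0 (SE 0.355, adjusted p = 2.91e-06). In WT cells at day 4 its difference was 1.18 (adjusted p = 0.0252), lost without the second (0.0794) or the third library without VC (0.131) or the first with VC (0.128). Markers moved with VC as well. At day 0, the 8 fibroblast markers summed to 176400 to 242800 CPM with VC against 70310 to 110900 CPM without in D/KO cells, and to 148400 to 162500 CPM against 46280 to 47700 CPM in WT cells. The 4 endothelial markers of D/KO day 0 libraries summed to 180.1 to 216.8 CPM with VC against 512 to 599.2 CPM, the 4 muscle markers to 4.82 to 9.75 CPM against 20.8 to 34.4 CPM, and the 3 cartilage markers (Acan, Col2a1 and Sox9) to 9.06 to 16.8 CPM against 40.4 to 44.2 CPM. For WT day 0 libraries these sums were 4.67 to 7.08 against 14.4 to 17.2 CPM, 8.05 to 11.3 against 1.82 to 3.01 CPM and 16.6 to 24.4 against 33.3 to 45.96 CPM. The 6 epithelial markers of D/KO cells summed to 107.4 to 128.2 CPM with VC against 15.3 to 23.01 CPM without on day 2, and to 480.3 to 591.5 CPM against 47.2 to 69.8 CPM on day 4. On day 2, 6 of 15 S phase genes were higher with VC in the D/KO line and 9 in the WT line, and on day 4 these were 13 and 10. The same held for 1 and 7 of 8 G2 and M phase genes on day 2, and for 8 and 8 on day 4. Their part in the differences of the members was not tested.

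Msh6 was higher with VC in D/KO cells at day 2 by 0.44 (SE 0.105, adjusted p = 0.00149) and at day 4 by 0.51 (SE 0.104, adjusted p = 0.000184), and in WT cells at day 0 by 0.43 (SE 0.106, adjusted p = 0.00187). In WT cells at day 2 it was higher by 0.31 (adjusted p = 0.0264), a call lost without the first (0.0650) or second library without VC (0.141) and without the first (0.0581) or the third with VC (0.125). With totals in place of TMM scaling, the WT differences of Msh6 at day 0 and day 2 were both 0.14 and not called. That scaling moved the median of all genes by -0.29 at WT day 0.

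Msh3 with VC was at 7.83, 8.66 and 9.68 CPM in D/KO cells at day 0, against 5.93, 6.22 and 4.83 CPM without (log2 difference 0.62, adjusted p = 0.0108). In WT cells it was at 9.32, 9.90 and 9.55 CPM at day 2, against 6.36, 6.22 and 6.11 CPM without (0.62, SE 0.179, adjusted p = 0.00889). At day 4 in WT cells it was at 13.0, 10.5 and 9.31 CPM against 7.37, 6.99 and 7.29 CPM (0.60, SE 0.176, adjusted p = 0.0114). In none of these 3 pairs did the libraries overlap. The D/KO day 0 call was lost without the third library of either group (adjusted p = 0.0699 and 0.0542), and the WT day 4 call without the first library with VC (0.0969). At D/KO day 2 the difference was 0.47 (adjusted p = 0.0467), and this call was lost without the second (0.171) or the third library without VC (0.140) or any library with VC (0.0654 to 0.163). With totals in place of TMM scaling, the Msh3 differences at D/KO days 0 and 2 and at WT day 2 were 0.45, 0.44 and 0.45 and not called (adjusted p = 0.0666, 0.0690 and 0.0580).

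Among the MutL genes, Pms2 was higher at day 2 by 0.54 (adjusted p = 0.0141) and at day 4 by 0.51 (adjusted p = 0.0152), and in WT cells at day 4 by 0.62 (SE 0.164, adjusted p = 0.00499). The D/KO calls were lost without the second library of day 2 without VC (0.108), the third of day 2 with VC (0.208) or the second of day 4 without VC (0.0729). Pms1 was higher at day 2 by 0.76 (adjusted p = 0.0298) and at day 4 by 0.72 (adjusted p = 0.0247). The day 2 call was lost without the first (0.0773) or the third library without VC (0.164) or the second (0.178) or the third with VC (0.105), and the day 4 call without the second library without VC (0.176) or the first with VC (0.0652). Mlh3 was lower with VC at day 0 by a log2 difference of -0.52 (adjusted p = 0.0127), lost without the second library without VC (0.194) or the third with VC (0.0749). At day 4 Mlh3 was higher by 0.43 (adjusted p = 0.0292), lost without the second (0.180) or the third library without VC (0.0624) or the first with VC (0.266).

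Genes of the later steps were described as a list of 15: the sliding clamp Pcna, its loaders Rfc1 to Rfc5, the single-strand binding proteins Rpa1 to Rpa3, the polymerase delta subunits Pold1 to Pold4, the ligase Lig1 and the chromatin protein Hmgb1. In D/KO cells at day 4 with VC, 10 of 15 rose and 1 fell, against 54.1% of all genes called, with a median log2 change of 0.62 against 0.01 over all genes. Lig1 rose by 1.35 (SE 0.159, adjusted p = 4.47e-09), Pold2 by 0.96 (SE 0.133, adjusted p = 1.32e-07), Rfc5 by 0.94 (SE 0.148, adjusted p = 1.44e-06) and Pcna by 0.94 (SE 0.137, adjusted p = 3.93e-07). The gene that fell was Hmgb1, at -0.26 (SE 0.0872, adjusted p = 0.0116). In WT cells at day 4 with VC, 2 rose and 4 fell, against 44.7% of genes called, with a median of -0.16. Rfc1 (0.56) and Pold2 (0.42) rose, and Rfc2 (-0.42), Rpa1 (-0.25), Rpa2 (-0.48) and Hmgb1 (-0.25) fell. The interaction called 8 of 15 as rising more in D/KO cells, against 29.4% of genes called, Rfc5 by 1.24 and Lig1 by 1.21 among them. Without VC at day 4, 4 of 15 rose in D/KO cells and 1 fell in WT cells, against 37% and 24.5% of genes called.

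**Figure D3:**
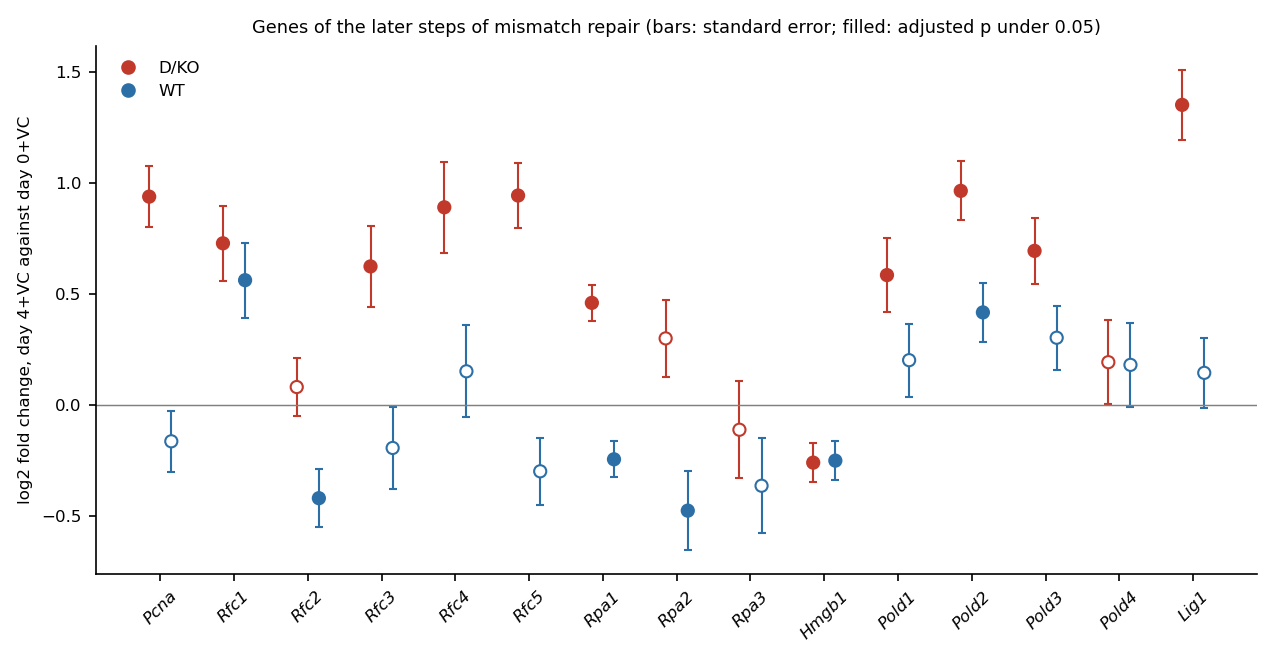
Log2 fold change from day 0+VC to day 4+VC (y axis) of 15 genes of the later steps of mismatch repair in D/KO (red) and WT (blue) cells; points are estimates from 3 libraries a group, bars the standard error, and filled points have an adjusted p under 0.05. Lig1 is highest in D/KO cells at 1.35, and Hmgb1 lies below 0 in both, at -0.26 and -0.25.

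Among the MutS relatives that act in meiosis, Msh4 had 0 to 8 counts per reprogramming library and was not tested. Msh5 lay at 0.0664 to 1.79 CPM. It was called in 3 comparisons: higher in WT cells from day 2+VC to day 4+VC by 2.05 (adjusted p = 0.0327), lower with VC in WT cells at day 0 (-1.64, adjusted p = 0.0493), and lower in the TGFB-labelled cells (-1.51, adjusted p = 0.0111).

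Of the members, Exo1 had the highest correlation with the cell cycle genes. Over the 12 group means of the reprogramming table, Pearson's r of Exo1 was 0.971 with the mean log2 CPM of 15 S phase genes and 0.955 with that of 8 G2 and M phase genes. For the other members, r with the S phase genes ran from -0.48 (Mlh3) to 0.60 (Msh6). These are descriptions over 12 groups that share genotype, VC and day, and the points of a gene and a list come from the same libraries. In D/KO cells at day 4 with VC, 12 of 15 S phase genes rose and 1 fell (median 1.07) and 8 of 8 G2 and M phase genes rose (median 1.38), against 54.1% of all genes called. In WT cells the same days gave 9 lower of 15 and 7 lower of 8 (medians -0.69 and -0.88), against 44.7% of genes called. At WT day 0, where Exo1 was 5.09-fold higher with VC, 13 of 15 and 8 of 8 were higher with VC, against 29.4% of genes called. Mcm5, a subunit of the replicative helicase, was higher with VC at WT day 0 by 2.16 (SE 0.185) and rose by 1.79 (SE 0.168) in D/KO cells by day 4 with VC. At day 0 without VC, where Exo1 was higher in D/KO than in WT cells, 13 of 15 and 8 of 8 were higher in D/KO cells (medians 0.95 and 1.83), against 43.2% of genes called. Other comparisons did not follow this. In D/KO cells at day 2 without VC, 7 of 15 S phase and 5 of 8 G2 and M phase genes rose, against 14.3% of all genes. The change of Exo1 there was 0.12 (adjusted p = 0.821). Exo1 was lower in D/KO than in WT cells at day 0 with VC. There 2 of 15 S phase genes were higher and 1 lower and 0 of 8 G2 and M phase genes were called, against 20.3% of all genes called. At D/KO day 0, Exo1 with VC was at -0.57 (adjusted p = 0.22), while 2 of 15 and 1 of 8 of these genes were higher with VC, against 12.1% of all genes. What part the share of dividing cells has in the Exo1 values was not tested.

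**Figure D4:**
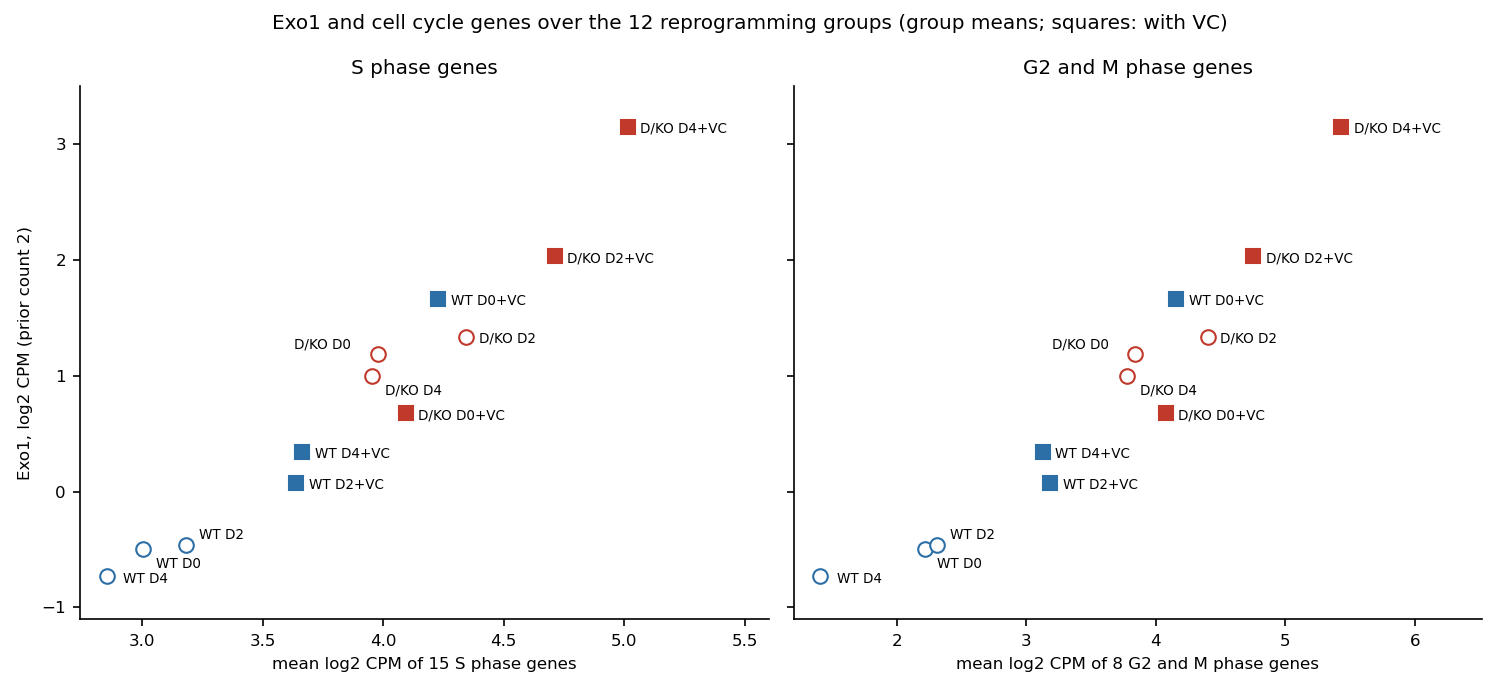
Group mean log2 CPM of Exo1 (y axis) against the mean log2 CPM of 15 S phase genes (left) and 8 G2 and M phase genes (right) in the 12 reprogramming groups; squares are groups with VC, circles without, red D/KO and blue WT. The points climb together, with r of 0.971 and 0.955, from the WT groups without VC to D/KO day 4+VC.

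The 3 genes whose pattern over the 12 group means was most like that of Exo1 were Mcm5 (r = 0.978), the helicase gene Brip1 (0.973) and the cyclin F gene Ccnf (0.970). The nearest genes to Msh6 were Srd5a1 (0.968), Def6 (0.958) and Ercc4 (0.954), and those to Msh3 were Mtr (0.945), Ano3 (0.941) and Tlr5 (0.934). Zfp951 (0.924), Chmp1b2 (0.913) and Poc1b (0.912) were nearest to Mlh3, Zfp930 (0.943), Nkap (0.935) and Ppid (0.921) to Pms1, and Sdad1 (0.947), Nup155 (0.937) and Stk35 (0.923) to Pms2. Among the members, Msh3 was closest to Pms2 and Msh6 (r = 0.82 with each), and Mlh3 and Exo1 were the least alike (r = -0.35).

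Markers of other cells moved with the largest changes. The summed level of 6 epithelial markers (Krt5, Krt14, Krt8, Krt18, Epcam and Cdh1) went from 0.324 to 1.12 CPM in D/KO day 0+VC libraries to 480 to 592 CPM at day 4+VC, and 4 of the 5 tested rose. In WT libraries it was 0 to 0.184 CPM at day 0+VC and 7.02 to 8.14 CPM at day 4+VC. Of 8 fibroblast markers, 7 fell and 1 rose in D/KO cells by day 4+VC, against 54.1% of all genes called. From D/KO day 0+VC to day 4+VC, the endothelial sum moved from 180.1-216.8 to 377.7-509.4 CPM and the immune sum from 10.2-12.8 to 2.45-2.91 CPM. In WT cells over the same days, the endothelial sum moved from 4.67-7.08 to 98.1-116.1 CPM and the immune sum from 69.6-117.8 to 41.55-44.3 CPM. The WT fibroblast sum moved from 148400-162500 to 51910-61380 CPM. Their part in the member changes was not tested.

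The libraries' strand setting is not given in the sources used here, and in GENCODE M39 members share exon bases with genes on the other strand. Without strand, reads from shared bases cannot be told apart. The counted gene models of the members were shorter than those of GENCODE M39. They began at 53336177 for Pms1 and 143846782 for Pms2, against 53336482 and 143846412 in GENCODE M39. The distances and shared bases given here are those of GENCODE M39, and whether the counted models shared them is not known. Pms1 and Ormdl1 start 254 bases apart and share 255 exon bases, Pms2 and Aimp2 253 apart with 254, and Exo1 and the noncoding Gm36360 646 apart with 487. Msh6 shares 524 exon bases with Fbxo11, and Mlh3 shares 90 with the noncoding Gm59547. Ormdl1 rose in D/KO cells by day 4+VC by 0.77 (SE 0.226, adjusted p = 0.00407), where Pms1 rose by 1.60. Fbxo11 was not called there, and at D/KO day 4 it was higher with VC by 0.31 (SE 0.119, adjusted p = 0.0453).

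The inhibitor table asked how blocking TGFβ family receptors acts on D/KO fibroblasts. Repsox, Vactosertib and A83-01 inhibit the TGFβ type I receptor, and DMH-1 a type I receptor of the BMP branch. The study describes Vactosertib as an inhibitor of both. Msh3 fell with the TGFβ receptor inhibitors, and Exo1 fell with A83-01. Repsox had 1 of 6 members lower (20.7% of genes called, 9.73% lower), Vactosertib 1 of 6 (18.1% called, 8.7% lower) and A83-01 2 of 6 (27.5% called, 13.9% lower). With DMH-1, edgeR and DESeq2 called 0 of 6 and none had an unadjusted p under 0.05, against 7.25% of genes called. All 4 comparisons share the same 3 control libraries, and differences between inhibitors were not tested.

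Msh3 was at 7.07, 6.29 and 7.91 CPM in the control cells. It was at 5.41, 4.14 and 4.73 CPM with Repsox, at 4.13, 5.48 and 3.97 CPM with Vactosertib and at 4.23, 5.15 and 5.10 CPM with A83-01. All 9 of these lay below the controls, while DMH-1 libraries at 5.48, 5.65 and 7.27 CPM overlapped them. Msh3 fell by 0.57 with Repsox (SE 0.184, adjusted p = 0.0302), by 0.64 with Vactosertib (SE 0.185, adjusted p = 0.0194) and by 0.55 with A83-01 (SE 0.183, adjusted p = 0.0285). With DMH-1 the change was -0.21 (95% confidence interval -0.59 to 0.17, adjusted p = 0.617). Each of the 3 calls was lost without the first control library (adjusted p = 0.0731, 0.0526 and 0.0677) or the third (0.127, 0.0872 and 0.118). The second Repsox library, which held the lowest Msh3 of the 3, stood apart, with a chi-square per gene of 163.3 and 176.2 against the others and 5.48 between those, and without it the change was -0.48 (adjusted p = 0.119). The calls were also lost without the third (0.0795) Repsox library, the first (0.0888) or the third (0.0976) Vactosertib library, and the first (0.126) or the third (0.0516) A83-01 library. With totals in place of TMM scaling, Msh3 was not called with Repsox (-0.45, adjusted p = 0.0788) or A83-01 (-0.40, adjusted p = 0.105). The summed level of the 3 cartilage markers was 26.1 to 31.8 CPM in the control libraries, 5.38 to 9.04 CPM with Repsox, 8.22 to 9.30 CPM with Vactosertib, 5.89 to 7.94 CPM with A83-01 and 14.2 to 16.0 CPM with DMH-1. That of the 4 endothelial markers was 239.7 to 288.4 CPM in the controls and 106.1 to 143.3 CPM with A83-01, and 146.2 to 359 CPM over the other 3 inhibitors. That of the 5 immune markers was 10.1 to 14.3 CPM in the controls, 9.03 to 12.6 CPM with DMH-1 and 13.8 to 28.5 CPM over the 3 TGFβ receptor inhibitors. The 8 fibroblast markers summed to 72140 to 78370 CPM in the controls and to 62030 to 79970 CPM with DMH-1. With Repsox the sum was 31890 to 41520 CPM, with Vactosertib 42080 to 45670 CPM and with A83-01 35750 to 37980 CPM. The part of these lists in the changes of Msh3 and Exo1 was not tested.

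Exo1 was at 1.66, 1.32 and 0.767 CPM in control cells and at 0.539, 0.458 and 0.407 CPM with A83-01, which did not overlap. The fall was 1.42 (SE 0.376, adjusted p = 0.00656) on 11 to 39 counts per library, and was not called without the first control library (-1.16, adjusted p = 0.0530). With A83-01, 11 of 15 S phase genes and 7 of 8 G2 and M phase genes fell (medians -0.75 and -1.84), against 13.9% of all genes called as lower. Vactosertib lowered 2 of 15 and 7 of 8 (8.7% of all genes lower), and Repsox 1 of 15 and 5 of 8 (9.73% lower). DMH-1 lowered 3 of 15 and 3 of 8, against 7.25% of all genes called in either direction. Exo1 was not called with Vactosertib, Repsox or DMH-1. Of the later-step genes, A83-01 lowered Rfc1 (-0.48, SE 0.170, adjusted p = 0.0407) and Rpa1 (-0.34, SE 0.100, adjusted p = 0.0128), 2 of 15, which is near the 13.9% over all genes.

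**Figure D5:**
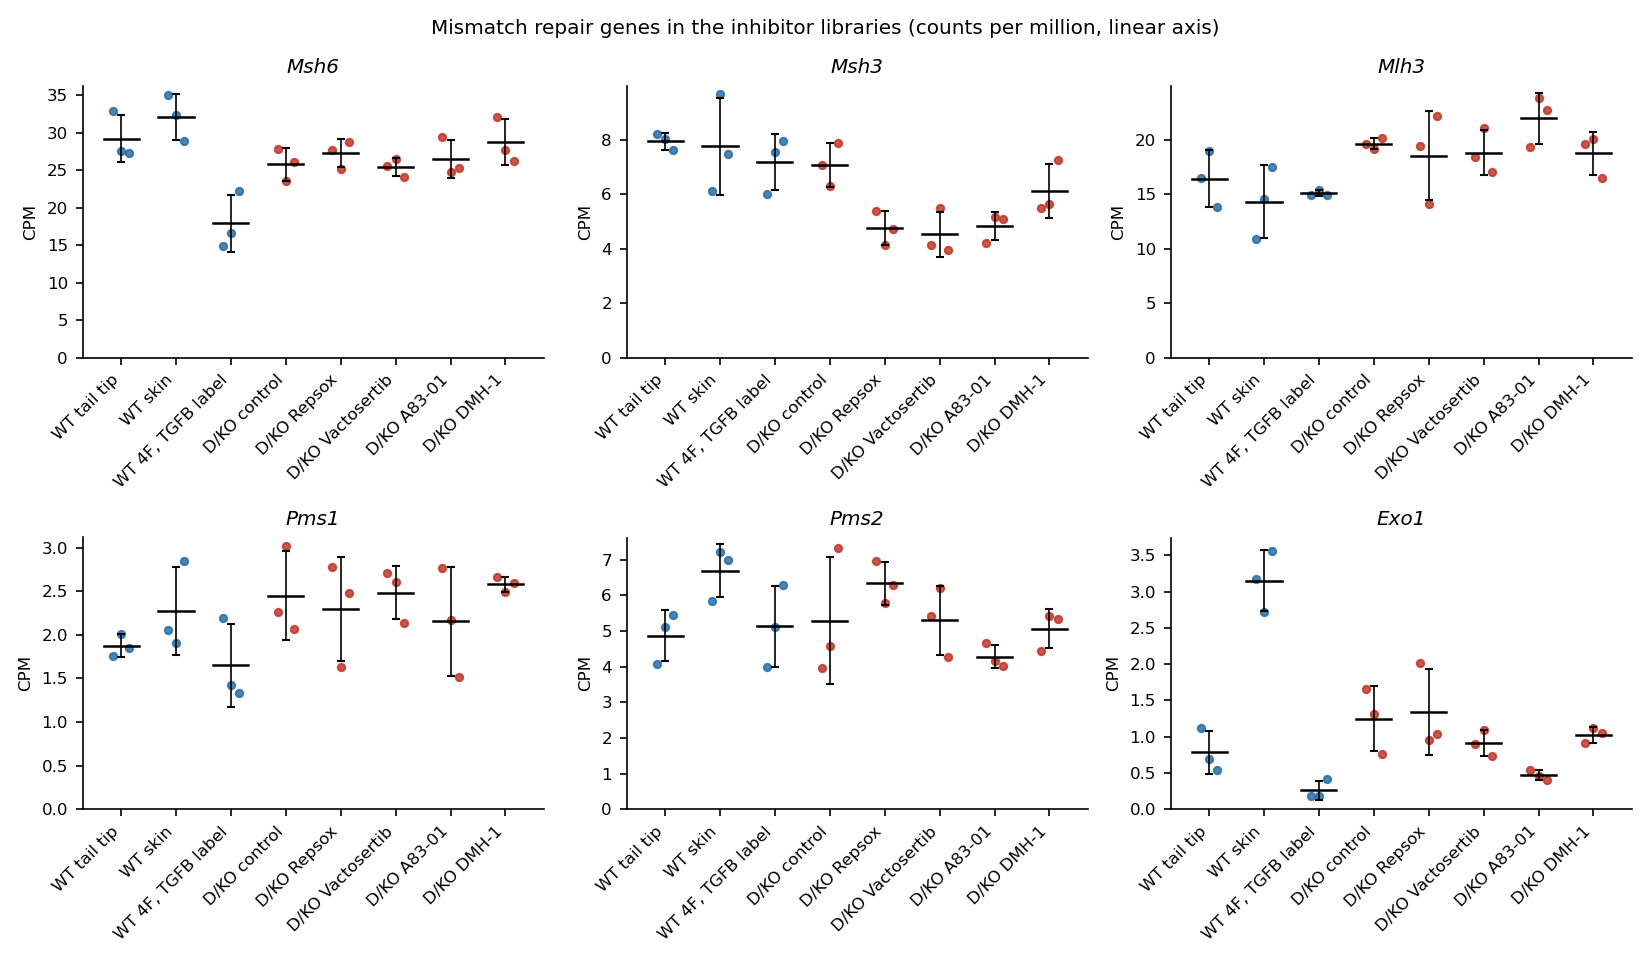
Each panel plots CPM (linear axis) of a mismatch repair gene in the 24 libraries (points) of the 8 groups of the inhibitor table, with the group mean and SD over 3 libraries; cells labelled D/KO are red and WT cells blue. Msh3 lies at 3.97 to 5.48 CPM with Repsox, Vactosertib and A83-01 against 6.29 to 7.91 CPM in the D/KO controls, and Exo1 is highest in WT skin cells.

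Between control D/KO and WT tail tip cells of this table, edgeR and DESeq2 called 0 of 6, none had an unadjusted p under 0.05, and 34.6% of genes were called. Between WT skin and WT tail tip cells, Exo1 was the only member called, 1 of 6 against 34.2% of genes called and 18.1% called as higher. Exo1 was at 3.17, 2.72 and 3.56 CPM in skin cells and at 1.12, 0.698 and 0.535 CPM in tail tip cells (log2 difference 1.99, SE 0.346, adjusted p = 0.000115), and 14 of 15 S phase and 8 of 8 G2 and M phase genes were higher in skin cells. The first skin library stood apart from the other two, with a chi-square per gene of 396.7 and 300.9 against them and 6.27 between them, and without it the difference in Exo1 was 1.98 (adjusted p = 0.000317). The summed level of 4 muscle markers (Myod1, Myf5, Pax7 and Des) was 56.0 to 83.5 CPM in skin and 2.09 to 3.77 CPM in tail tip cells, nearly all of it Des. The endothelial sum was 115.8 to 208.6 CPM in skin and 57.7 to 75.8 CPM in tail tip cells. The immune sum was 15.1 to 17.7 CPM against 7.95 to 9.47 CPM, and the cartilage sum 39.7 to 60.25 CPM against 75.7 to 88.5 CPM. Their part in the difference of Exo1 was not tested. The WT 4FJ cells labelled TGFB had less Exo1 and less Msh6 than WT tail tip cells, 2 of 6 against 62.2% of genes called and 33.6% called as lower. Exo1 was at 0.176, 0.184 and 0.413 CPM on 4 to 9 counts (log2 difference -1.60, SE 0.426, adjusted p = 0.0028), and Msh6 at 14.8, 16.6 and 22.2 CPM against 32.9, 27.5 and 27.3 CPM (-0.71, SE 0.137, adjusted p = 0.000145). Neither gene's libraries overlapped between these groups. Line, age and label changed together in this comparison, the median over all genes was -0.11, and 8 of 15 later-step genes were lower, led by Lig1 at -1.53 (SE 0.142, adjusted p = 8.02e-09). Also lower were 8 of 8 G2 and M phase and 9 of 15 S phase genes (2 of 15 were higher), 5 of 8 fibroblast markers and 4 of 4 endothelial markers, whose sum was 0.968 to 1.83 CPM against 57.7 to 75.8 CPM. The 5 immune markers were all higher, with a sum of 20.9 to 24.8 CPM against 7.95 to 9.47 CPM. The part of these lists was not tested.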

How the data were processed

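RNA from fibroblast samples was sequenced as 150 bp paired reads, 3 libraries per group. Per the labels and the study's methods, the authors used FastQC, Trim Galore, HISAT2 on GRCm39 and featureCounts (Subread), and deposited raw counts per gene. Versions, annotation, strand setting and the treatment of multimapped reads are not given in the sources used here. Counts were scaled by TMM, and counts per 1000000 scaled counts (CPM) use these totals. CPM per kilobase use the deposited gene length. The test was edgeR 4.0.16 (R 4.3.3) on all libraries of a table with a coefficient per group (glmQLFit, glmQLFTest, two-sided), after filterByExpr (minimum count 10, total 15), on 15832 and 15652 genes, with Benjamini-Hochberg adjustment. Group means for patterns are log2 CPM with a prior count of 2. Symbols and positions came from GENCODE M39, which matched 56236 of 56980 IDs. Scripts were tested on simulated data.

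The 6 members are named in all 31 comparisons. The gene lists, the 3 genes of nearest pattern and the neighbours (overlapping, or a start on the other strand within 1000 bases) followed written rules. Members and lists were chosen with earlier results of these data known. Alternatives were DESeq2 1.42.0 and its size factors, totals without TMM, other filters, fits of only the compared groups, a log2 threshold of 1, day 0 without VC as baseline, and leaving out each library. No 2 libraries of a group held identical counts. A neighbouring gene and a marker list are not reported here.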

Additional observations from a re-analysis of the deposited data

Results flagged for a closer look

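In 3 results, the change from day 0 with VC differed between D/KO and WT cells by the interaction test of edgeR with Benjamini-Hochberg adjustment. The change of Exo1 was greater in D/KO cells by 3.07 on the log2 scale at day 2 and by 3.96 at day 4, with all 3 D/KO libraries above and all 3 WT libraries below their own day 0+VC libraries on both days. The change of Msh6 at day 4 was greater in D/KO cells by 0.41. With day 0 without VC as baseline these were 0.15, 1.04 and 0.22, none of them called.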

How the results depend on the processing

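No paired analysis was possible because the labels give only running library numbers, which groups do not share. The values of Exo1 rest on 3 libraries a group and 4 to 180 counts per library, and the smallest change that could be detected was not computed. DESeq2 gave the same 31 counts of members called and kept all 48 gene calls. Subtracting the median of all genes could not turn a direction. After TMM scaling that median lay between -0.11 and 0.03, and the smallest called change was 0.30. Values below are members called, with the main count before the alternative; causes were not tested beyond the alternative's own construction.

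With DESeq2 size factors, D/KO day 2 went from 2 to 1. With no low count filter, more genes were tested: D/KO day 2 went from 2 to 1, day 4 from 1 to 0, WT day 4+VC against day 2+VC from 1 to 0, VC at D/KO day 2 from 4 to 1, at D/KO day 4 from 5 to 3, at WT day 2 from 2 to 1, the day 4+VC interaction from 2 to 1, Repsox and Vactosertib from 1 to 0 and A83-01 from 2 to 1. With only the groups compared in the fit, D/KO day 2 went from 2 to 1, day 4 from 1 to 0, WT day 4+VC against day 2+VC from 1 to 2, VC at D/KO day 0 from 2 to 0, at D/KO day 4 from 5 to 2, at WT day 2 from 2 to 1, the day 4+VC interaction from 2 to 1 and Repsox from 1 to 0.

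With totals and no TMM, which moved the median of all genes by up to 0.38 (D/KO day 4+VC), D/KO day 4 went from 1 to 2, day 2+VC from 3 to 6, day 4+VC against day 2+VC from 1 to 2, WT day 2+VC from 1 to 2, day 4+VC from 3 to 6, day 4+VC against day 2+VC from 1 to 2, VC at D/KO day 0 from 2 to 1, at WT day 2 from 2 to 0, D/KO against WT at day 0 from 1 to 4, the day 2+VC interaction from 1 to 2, Repsox from 1 to 0 and A83-01 from 2 to 1. With at least 10 counts in every library, Exo1 was not tested: D/KO day 4 and WT day 4+VC against day 2+VC went from 1 to 2, VC at WT day 0, D/KO against WT at day 0+VC, the day 4+VC interaction, A83-01 and the TGFB label from 2 to 1, and D/KO day 4+VC against day 2+VC, WT day 2+VC, D/KO against WT at day 0, the day 2+VC interaction and skin from 1 to 0. With a log2 change of at least 1, D/KO day 2, VC at D/KO day 0 and at WT day 2 went from 2 to 0, D/KO day 4, WT day 4, WT day 4+VC against day 2+VC, Repsox and Vactosertib from 1 to 0, D/KO day 4+VC from 4 to 2, VC at D/KO day 2 from 4 to 0, at D/KO day 4 from 5 to 1, at WT day 4 from 3 to 1, and VC at WT day 0, D/KO against WT at day 0+VC, the day 4+VC interaction, A83-01 and the TGFB label from 2 to 1.

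Changes of these counts by at most 1.5 times were as follows. With no low count filter, WT day 4+VC and VC at WT day 4 went from 3 to 2. With totals, D/KO day 4+VC went from 4 to 6, VC at D/KO day 2 from 4 to 3 and at WT day 0 from 2 higher to 1 higher and 2 lower. With at least 10 counts, D/KO day 2+VC and WT day 4+VC went from 3 to 2, D/KO day 4+VC from 4 to 3 and VC at D/KO day 4 from 5 to 4. With a log2 change of at least 1, D/KO day 2+VC and WT day 4+VC went from 3 to 2.

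With day 0 without VC as baseline, D/KO day 2+VC went from 3 to 5, day 4+VC from 4 to 5, WT day 2+VC from 1 to 2, day 4+VC from 3 to 4, the interactions from 1 and 2 to 0, and Exo1 in WT cells turned to 0.72 at day 2 and 0.94 at day 4. Leaving out each library in turn, the counts ranged from 3 to 4 at D/KO day 2+VC, 4 to 4 at day 4+VC, 1 to 2 at D/KO day 2, 0 to 2 at D/KO day 4, 1 to 1 at WT day 4 and day 2+VC, 2 to 3 at WT day 4+VC, 0 to 1 at WT day 2, 1 to 1 and 0 to 1 at day 4+VC against day 2+VC in D/KO and WT cells, 0 to 2, 1 to 3 and 2 to 5 for VC in D/KO and 2 to 3, 1 to 2 and 1 to 3 in WT cells at days 0, 2 and 4, 1 to 2 for D/KO against WT with or without VC, 1 to 1 and 1 to 2 for the interactions with VC, 0 to 1 for that at day 2, 0 to 1 for Repsox and Vactosertib, 0 to 2 for A83-01, 1 to 1 for skin, 2 to 2 for the TGFB label and 0 to 0 elsewhere. Of 306 gene calls with a library left out, 241 held and 65 were lost.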
